A study of Homo sapiens with 4 samples.

Results

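Aminoacyl-tRNA synthetases are the enzymes that join each amino acid to its transfer RNA. The genes described here are 36 synthetase genes of the 58735 genes in the count table, picked by gene name alone: 20 encode cytosolic enzymes and 16 encode mitochondrial ones. The measurements are RNA-seq gene counts from SW1990, an established line of human pancreatic cancer cells, so a single cell line stands for the tumour. The cells were given vehicle (2 libraries, Vehicle 1 and 2) or 10 µM gomisin G, a plant lignan (2 libraries, Gomisin G 1 and 2), in both cases for 24 h. The comparison asks how the transcripts of the cytosolic and of the mitochondrial enzymes stood with gomisin G against vehicle. Symbols are the older ones of the count table, and current symbols of the cytosolic genes other than FARSA and FARSB add a final 1 (IARS is now IARS1).

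Cytosolic and mitochondrial protein synthesis use separate sets of these enzymes, nearly all encoded by separate nuclear genes. The exceptions among the genes here are GARS and KARS, the glycyl and lysyl enzymes, each of which supplies both compartments from 1 gene. Several cytosolic enzymes sit together in the multi-synthetase complex on the scaffold proteins AIMP1, AIMP2 and EEF1E1. Human mitochondria have no glutaminyl enzyme of their own: EARS2 first loads glutamate and an amidotransferase (QRSL1, GATB, GATC) converts it. Many cytosolic synthetase genes are known targets of ATF4, the transcription factor of the amino acid and integrated stress response, which binds C/EBP-ATF elements.

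The C/EBP-ATF element is shown first because its core was found in a larger share of cytosolic than of mitochondrial promoters. The choice of genes did not use it, and the difference in share was not tested. RefSeq promoter windows on GRCh38.p14, each from 250 bases before to 50 bases after the gene start, were matched for 30 of the 36 genes, with none matched for DARS, LARS, VARS, YARS, AARS2 and VARS2. The core TGATGNAA, searched on both strands, was present in 6 of 16 cytosolic windows (37.5%) and in 1 of 14 mitochondrial windows (7.14%). Of 15843 windows of protein-coding genes of the same length, 2.53% held it. The 6 cytosolic matches were all TGATGCAA, and the single mitochondrial one, in YARS2, was TGATGGAA. Each line gives 30 bases from RefSeq, 5′ to 3′ on the named genome strand, with the match in capitals.
AARS (chr16:70289675-70289704, plus strand): tctaacttggcTGATGCAActgcgagaaaa
CARS (chr11:3057407-3057436, plus strand): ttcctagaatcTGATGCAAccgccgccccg
IARS (chr9:92293692-92293721, plus strand): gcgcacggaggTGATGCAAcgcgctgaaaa
MARS (chr12:57488053-57488082, minus strand): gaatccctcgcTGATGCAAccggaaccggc
NARS (chr18:57621804-57621833, minus strand): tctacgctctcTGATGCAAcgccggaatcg
TARS (chr5:33440956-33440985, minus strand): gctggaccagcTGATGCAAtcgaaaggcgc
YARS2 (chr12:32756076-32756105, minus strand): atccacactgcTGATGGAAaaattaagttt
In IARS the match began 13 bases before the gene start, in NARS 15 bases and in TARS 3 bases after it. In CARS and MARS it spanned the start, and in AARS it lay between 187 and 180 bases before it. A match is a description of the sequence and not a measured binding site.

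A second motif, the E-box CACGTG bound by MYC and related factors, was searched in the same windows. It was present in 1 of 16 cytosolic windows (IARS) and in 3 of 14 mitochondrial windows (CARS2, EARS2, MARS2), against 8.88% of protein-coding windows. CACGTG reads the same on both strands. These 4 are shown because IARS and EARS2 had the lowest p of their compartments. The motif was added after those p-values were seen, and its link to the changes was not tested. Capitals again mark the match.
IARS (chr9:92293866-92293895, minus strand): tggttcgttttcCACGTGgaggcgcaaaac
CARS2 (chr13:110706501-110706530, minus strand): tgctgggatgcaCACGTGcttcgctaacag
EARS2 (chr16:23557348-23557377, minus strand): cagggagaagccCACGTGtgctattccatc
MARS2 (chr2:197705346-197705375, plus strand): atgcgcctctcaCACGTGctgtcagaacgc
IARS was the only gene with both the E-box and the C/EBP-ATF core among the 30 windows.

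The libraries held 14580848 to 15245770 counts. Over 15721 tested genes, 287 (1.83%) passed edgeR's quasi-likelihood test at a Benjamini-Hochberg adjusted p below 0.05, here termed called. The 8 epithelial markers summed to 11925.4 and 10140.8 CPM with vehicle and 9968.8 and 7819.8 CPM with gomisin G, a sum made up mostly of KRT8 (log2 change -0.49) and KRT18 (-0.45). Of the 8, 5 had positive changes, among them MUC1 (0.83), KRT19 (0.68, called by DESeq2) and EPCAM (0.29), and the median was 0.16. KRT7 was scarce, at 0.875 to 2.07 CPM (counts scaled to library size with TMM factors). The 8 acinar and endocrine markers summed to 0.414 to 0.694 CPM. The 8 leukocyte and endothelial markers summed to 5.49 to 6.53 CPM, mostly from CD14 (4.67 to 6.12 CPM), with PTPRC and CD3E at 0. The 8 fibroblast markers summed to 11.7 and 14.1 CPM with vehicle and to 14.9 and 18.1 CPM with gomisin G, with COL1A2 and LUM at 0. Of the 3 tested, PDGFRB had a log2 change of 1.57 (edgeR adjusted p = 0.0548, called by DESeq2), COL1A1 one of 0.83 and ACTA2 one of -0.37, and the part of either list in the results was not tested. Nothing in the labels says whether replicate libraries came from separate cultures. The p-values therefore rest on a spread between libraries that may be only technical.

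All 36 genes passed the filter on low counts and were tested, and 35 of them stood above 10 CPM in every library. Cytosolic transcripts were the more abundant per length. Per kilobase of gene model, the vehicle mean of the 20 cytosolic genes had a median of 40.4 CPM per kb and ranged from 5.61 (CARS) to 58.9 (NARS). The 16 mitochondrial genes had a median of 10.4 CPM per kb and ranged from 0.683 (SARS2) to 52.4 (IARS2). IARS2, the mitochondrial isoleucyl enzyme, stood at 52.9 and 51.9 CPM per kb with vehicle and 52.7 and 54.2 with gomisin G. That is within the range of the most abundant cytosolic genes and more than the 23.1 CPM per kb of YARS2, the next mitochondrial gene. NARS, the asparaginyl enzyme, stood at 62.2 and 55.5 CPM per kb with vehicle, and FARSA, the alpha subunit of the phenylalanyl enzyme, at 61.6 and 49.7. The vehicle libraries of these genes overlap, so the order at the top of the cytosolic genes is not resolved. Gene model lengths include untranslated and alternative exons, which lowers the level of long models such as CARS and CARS2.

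**Figure D1:**
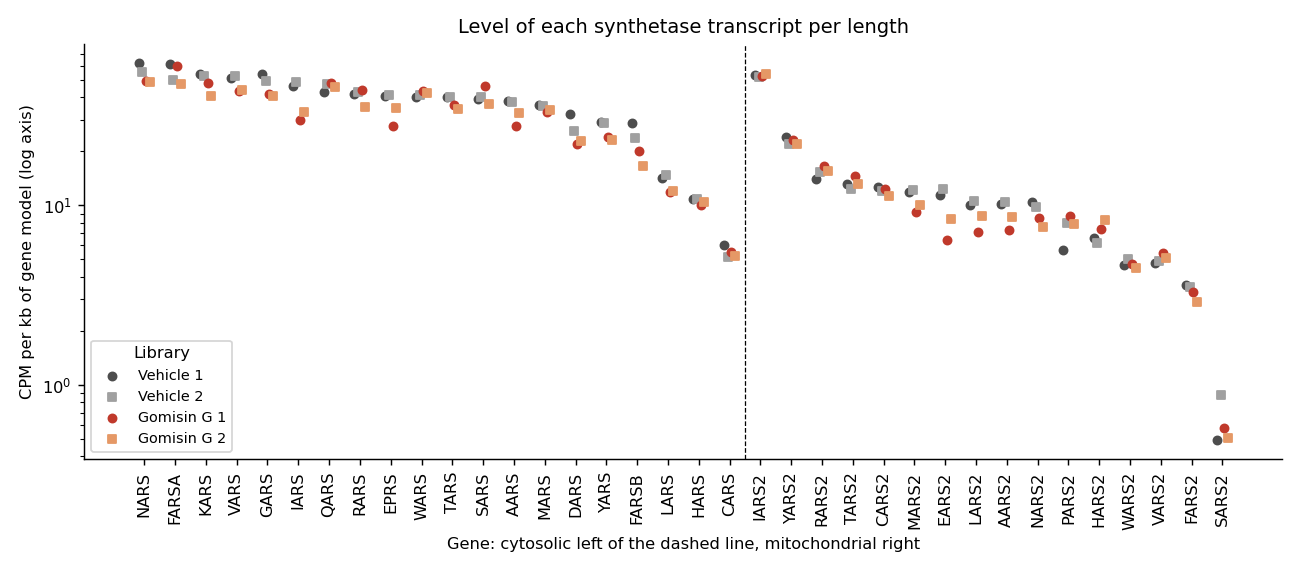
Level of each synthetase transcript in the 4 libraries, as CPM per kilobase of gene model on a log axis, with cytosolic genes left of the dashed line and mitochondrial genes right of it. Each point is 1 library, and IARS2 is the mitochondrial gene that lies among the highest cytosolic ones while SARS2 lies lowest, between 0.491 and 0.875 CPM per kb.

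With gomisin G, most cytosolic synthetase transcripts lay slightly below their vehicle level, and the mitochondrial ones lay on both sides of it, but no single gene passed the test. Log2 changes are gomisin G minus vehicle throughout. Of the 20 cytosolic genes, 17 had a negative log2 change, against 49.3% of all tested genes, and the median was -0.25 (quartiles -0.32 and -0.09). Of the 16 mitochondrial genes, 10 were negative and the median was -0.066 (quartiles -0.34 and 0.12). The median of all tested genes was 0.009. In bulk libraries of a cell line, a lower level in every cell and a lower level in part of the cells cannot be told apart.

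By edgeR's test 0 of the 36 genes were called, where 1.83% of all tested genes were. At an unadjusted p below 0.05, 3 cytosolic genes (IARS, FARSB, EPRS) and 1 mitochondrial gene (EARS2) remained, all with negative changes, against 20.6% of all tested genes in either direction and 9.62% in the negative one. DESeq2 called IARS and EARS2, where it called 6.5% of the 13587 genes to which it gave an adjusted p. The DESeq2 share of 6.5% is over those genes wherever it is given. For limma voom, 0 were called, where it called 1.68% of all tested genes. Standard errors (SE) ran from 0.15 to 0.19 for the cytosolic genes. The 126 genes that edgeR called at an SE of at most 0.19 had absolute log2 changes of 0.77 or more, and no synthetase gene reached that size.

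Calls of single genes depended on which libraries entered. Without Gomisin G 1, edgeR called 6 cytosolic genes (DARS, FARSB, GARS, IARS, KARS, YARS) and 2 mitochondrial ones (EARS2, NARS2), all negative, but it also called 17.1% of all tested genes. Without Gomisin G 2, it called 7 cytosolic genes (AARS, DARS, EPRS, FARSB, GARS, IARS, LARS) and 4 mitochondrial ones (AARS2, EARS2, LARS2, MARS2), and 38.6% of all tested genes. In these fits the spread comes from the vehicle pair, and the lone gomisin G library is assumed to vary like it. Without Vehicle 1 or Vehicle 2, 0 synthetase genes were called, and 0.96% and 0.813% of all tested genes. With replicate number as a block, IARS, FARSB and EARS2 were called, where 18.4% of all tested genes were.

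Groups that do not overlap are a second description of the same values. Both gomisin G libraries lay below both vehicle libraries for 14 of 20 cytosolic genes and for 6 of 16 mitochondrial genes, against 27.3% of all tested genes. They lay above both for 1 cytosolic gene (WARS) and for 3 mitochondrial genes (HARS2, RARS2, VARS2), against 27.0% of all tested genes. Scaling to total counts alone also put 14 cytosolic and 6 mitochondrial genes below, against 24.9% of all tested genes, and put 1 and 5 above, against 28.1%. Between the vehicle libraries, the median of Vehicle 2 minus Vehicle 1 was -0.006 over the cytosolic genes and 0.036 over the mitochondrial ones, with single genes on both sides of it, such as DARS at 130.2 and 103.5 CPM and PARS2 at 13.3 and 18.8 CPM.

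**Figure D2:**
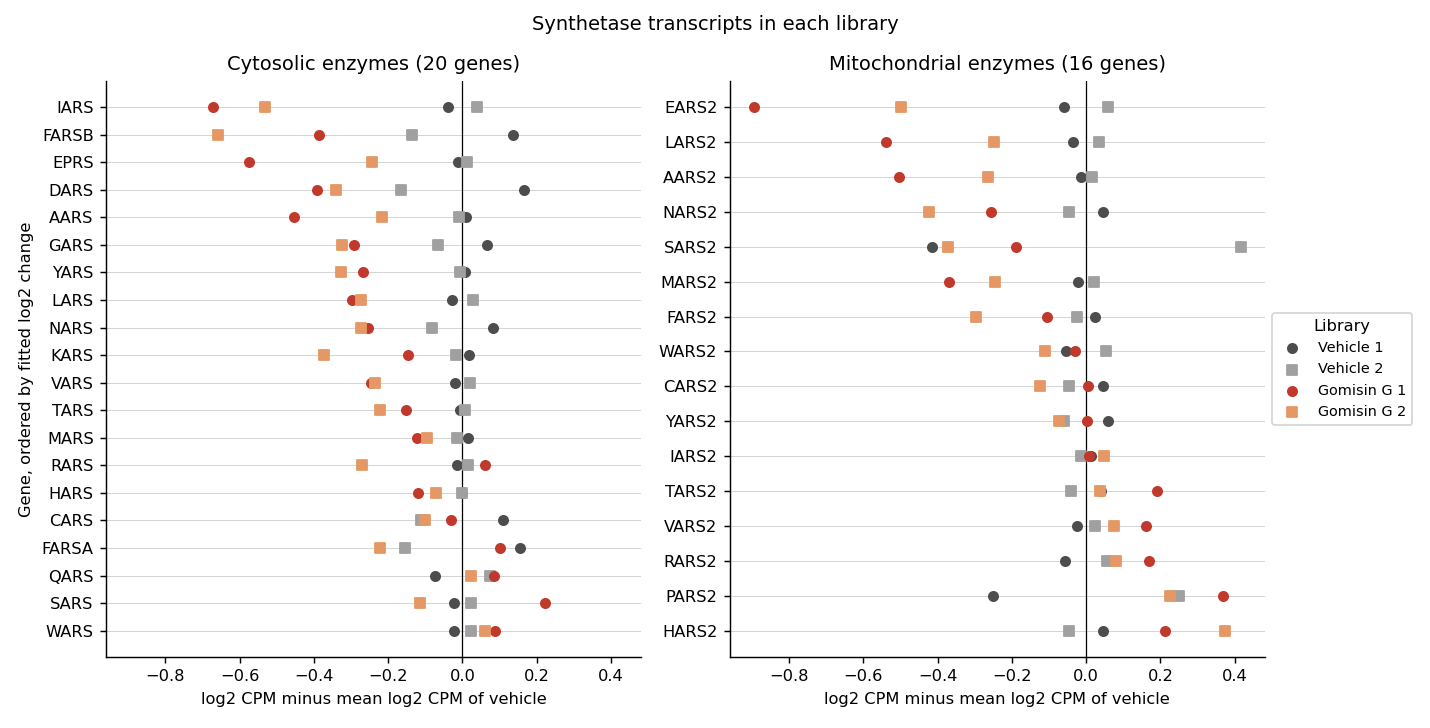
Each synthetase gene in each library, as log2 CPM minus the mean log2 CPM of the vehicle libraries, with the 20 cytosolic genes in the left panel and the 16 mitochondrial genes in the right one. Dark and grey points are Vehicle 1 and 2, red and orange points are Gomisin G 1 and 2, and both gomisin G points lie left of both vehicle points for 14 cytosolic and 6 mitochondrial genes.

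Enzymes of the multi-synthetase complex are taken first. IARS, the isoleucyl enzyme, lies on the minus strand of chromosome 9 at 92210207 to 92293756 (GRCh38) and carries both printed promoter motifs. It gave 342.8 and 362.2 CPM with vehicle and 221.2 and 243.9 CPM with gomisin G, so the groups lay far apart relative to the spread within each. The means were 352.5 ± 13.7 and 232.5 ± 16.1 CPM (SD, n = 2 each). The log2 change was -0.60 (SE 0.16), with an edgeR adjusted p of 0.0957. DESeq2 gave the gene an adjusted p of 0.0281. By edgeR's unadjusted p, 932 genes ranked at or before it.

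EPRS, at chromosome 1, 219968601 to 220046658 on the minus strand, carries the glutamyl and the prolyl enzyme in a single protein. It gave 222.1 and 225.6 CPM with vehicle and 150.2 and 188.9 CPM with gomisin G, a log2 change of -0.40 (SE 0.17; edgeR adjusted p = 0.237). The groups did not overlap, but the gomisin G libraries lay -0.58 and -0.24 from the vehicle mean, so Gomisin G 1 carried most of the difference. DARS, the aspartyl enzyme, gave 130.2 and 103.5 CPM with vehicle and 88.4 and 91.7 CPM with gomisin G, a log2 change of -0.38 (SE 0.17; edgeR adjusted p = 0.26). Its vehicle libraries differed from each other by more than Vehicle 2 differed from either gomisin G library.

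KARS, the lysyl enzyme that is also imported into mitochondria, gave 217.8 and 212.5 CPM with vehicle and 194.2 and 166.0 CPM with gomisin G, a log2 change of -0.26 (SE 0.16; edgeR adjusted p = 0.393). LARS, the leucyl enzyme that also senses leucine for mTORC1, had a log2 change of -0.28 with groups that did not overlap. MARS, the methionyl enzyme, had a change of -0.11 and RARS, the arginyl enzyme, one of -0.10, the latter with overlapping groups. QARS, the glutaminyl enzyme, gave 201.3 and 223.3 CPM with vehicle and 224.8 and 215.4 CPM with gomisin G, a log2 change of 0.05 (SE 0.16; edgeR adjusted p = 0.879). Its groups overlapped, and it was the single complex enzyme of the 8 with a positive change. The 8 enzymes had a median of -0.27, with 6 lower in both gomisin G libraries, and the 12 cytosolic genes outside the complex a median of -0.22, with 8 lower in both, against 27.3% of all tested genes.

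The scaffold proteins of the complex, which hold the enzymes together and carry no amino acid, had log2 changes of -0.10 (AIMP1), 0.06 (AIMP2) and -0.35 (EEF1E1). AIMP1 gave 54.6, 52.2, 55.1 and 44.6 CPM and AIMP2 53.9, 44.3, 60.7 and 41.6 CPM, in the order Vehicle 1, Vehicle 2, Gomisin G 1, Gomisin G 2. EEF1E1 gave 23.8, 18, 20.1 and 12.9 CPM in the same order. All 3 had overlapping groups.

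Outside the complex, FARSB and FARSA encode the beta and alpha subunits of one enzyme, the cytosolic phenylalanyl synthetase. FARSB (chromosome 2, 222570536 to 222656337, minus strand) gave 97.0 and 80.2 CPM with vehicle and 67.5 and 55.9 CPM with gomisin G, a log2 change of -0.52 (SE 0.18; edgeR adjusted p = 0.162). FARSA gave 150.0 and 121.1 CPM with vehicle and 144.6 and 115.5 CPM with gomisin G, a log2 change of -0.06. So the FARSB groups lay apart and the FARSA groups overlapped. The difference between the subunits was not tested. For both genes, replicate 1 lay above replicate 2 in each group.

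AARS, the alanyl enzyme, gave 171.5 and 169.2 CPM with vehicle and 124.3 and 146.6 CPM with gomisin G, a log2 change of -0.33 (SE 0.16; edgeR adjusted p = 0.285). GARS, the glycyl enzyme of both compartments, gave 222.5 and 203.4 CPM with vehicle and 173.7 and 169.9 CPM with gomisin G, a log2 change of -0.31 (SE 0.15; edgeR adjusted p = 0.293). Both had groups that did not overlap. The tyrosyl (YARS, -0.30), asparaginyl (NARS, -0.27), valyl (VARS, -0.24), threonyl (TARS, -0.19) and histidyl (HARS, -0.09) genes also lay lower in both gomisin G libraries. Groups overlapped for the cysteinyl gene CARS (-0.07) and the seryl gene SARS (0.06). WARS, the tryptophanyl enzyme and a known interferon-induced gene, gave 253.7 and 262.2 CPM with vehicle and 274.1 and 269.2 CPM with gomisin G. Its log2 change of 0.07 (SE 0.15; edgeR adjusted p = 0.817) was smaller than its SE, although its groups did not overlap.

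Among the mitochondrial genes, EARS2, the glutamyl enzyme that also starts the route to glutaminyl transfer RNA, had the most negative log2 change of all 36. It lies at chromosome 16, 23522014 to 23557731, on the minus strand, and its E-box is printed above. EARS2 gave 65.4 and 71.1 CPM with vehicle and 36.7 and 48.3 CPM with gomisin G. The means were 68.3 ± 4.05 and 42.5 ± 8.16 CPM (SD, n = 2 each). The log2 change was -0.68 (SE 0.18), with an edgeR adjusted p of 0.1 and a DESeq2 adjusted p of 0.0397. Of the amidotransferase genes that act after it, QRSL1 had a log2 change of -0.20 with both gomisin G libraries below both vehicle libraries, GATB one of 0.15 with both above, and GATC one of 0.06 with overlapping groups. Their difference from EARS2 was not tested. EdgeR, DESeq2 and limma voom each called 0 of the 3, against 1.83%, 6.5% and 1.68% of all genes. In edgeR, 0 of the 3 had an unadjusted p below 0.05, against 20.6% of all tested genes.

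The genes next by p had smaller differences. LARS2, the leucyl enzyme, gave 69.0 and 72.5 CPM with vehicle and 48.7 and 59.6 CPM with gomisin G, a log2 change of -0.39 (SE 0.17; edgeR adjusted p = 0.247). AARS2, the alanyl enzyme, gave 43.9 and 44.8 CPM with vehicle and 31.3 and 36.9 CPM with gomisin G, a log2 change of -0.38 (SE 0.17; edgeR adjusted p = 0.25). In EARS2, LARS2 and AARS2 alike, Gomisin G 1 was the lower library. NARS2, the asparaginyl enzyme, gave 32.9 and 30.9 CPM with vehicle and 26.7 and 23.8 CPM with gomisin G, a log2 change of -0.34 (SE 0.17; edgeR adjusted p = 0.298). MARS2, the methionyl enzyme, gave 35.5 and 36.6 CPM with vehicle and 27.9 and 30.4 CPM with gomisin G, a log2 change of -0.31 (SE 0.16; edgeR adjusted p = 0.324). Each of these groups lay apart, and so did those of the phenylalanyl gene FARS2 (-0.20).

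On the other side of vehicle stood HARS2, the mitochondrial histidyl enzyme, with 24.6 and 23.1 CPM with vehicle and 27.6 and 30.9 CPM with gomisin G, a log2 change of 0.30 (SE 0.17; edgeR adjusted p = 0.353). The arginyl gene RARS2 and the valyl gene VARS2, each at 0.12, also had both gomisin G libraries above both vehicle libraries. PARS2, the prolyl enzyme, had a change of 0.28, with Vehicle 1 at 13.3 CPM and the other 3 libraries between 18.5 and 20.4 CPM, and without Vehicle 1 the change was 0.047. The threonyl (TARS2, 0.12), isoleucyl (IARS2, 0.03), tyrosyl (YARS2, -0.04), cysteinyl (CARS2, -0.06) and tryptophanyl (WARS2, -0.07) genes had overlapping groups.

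SARS2, the mitochondrial seryl enzyme, had 23, 42, 27 and 26 counts, a log2 change of -0.34 and the widest SE of the 36 genes (0.40). Of its exon bases, 57.0% are shared with other genes of GENCODE 29: 46.2% with AC011455.2 on the same strand, which had 0 counts in every library, and the rest with MRPS12 on the opposite strand. VARS2 shares 22.0% of its exon bases with GTF2H4, which had 3 to 7 counts. HARS2 shares 15.8%, mostly with HARS, from which it is transcribed head to head. EARS2 shares 6.46% with UBFD1 on the opposite strand (1953 and 2074 counts with vehicle, 1578 and 1866 with gomisin G). WARS shares 10.6%, partly with WDR25 on the opposite strand (161 and 130 counts with vehicle, 197 and 178 with gomisin G), and MARS shares 13.3%. IARS, EPRS and FARSB share 0.0%. No source used here says whether counting used the read strand, without which reads of neighbours on opposite strands cannot be told apart. AC011455.2 and GTF2H4 lie on the same strand as SARS2 and VARS2, so the read strand would not separate their reads. How reads falling on several genes were counted is not given either. Without SARS2, VARS2 and HARS2, the remaining 13 mitochondrial genes had a median of -0.074, with 9 negative.

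Summed over each compartment, the cytosolic transcripts came to 3849.4 and 3783.2 CPM with vehicle and 3322.2 and 3242.1 CPM with gomisin G, a difference in means of -14.0%. The mitochondrial transcripts came to 856.4 CPM in both vehicle libraries and to 801.0 and 808.4 CPM with gomisin G, a difference in means of -6.04%. The ratio of the sums was 4.49 and 4.42 with vehicle and 4.15 and 4.01 with gomisin G, and the groups did not overlap in any of these 3 quantities. The closeness of the gomisin G libraries depended on the TMM factors. Scaled to total counts alone, their mitochondrial sums were 772.7 and 842.0 CPM, against 853.0 and 855.7 CPM with vehicle. The differences in means were then -13.6% for the cytosolic and -5.5% for the mitochondrial transcripts. With 2 libraries against 2, a two-sided exact permutation test cannot go below p = 0.33, so none was run.

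The difference between compartments was smaller in a fit that removed each library's trend with gene length. As reported, the cytosolic median minus the mitochondrial median was -0.18, and it was -0.19 in Gomisin G 1 and -0.12 in Gomisin G 2 against the vehicle mean. Cytosolic gene models are longer (median 5079 bases) than mitochondrial ones (3962) and all tested ones (4423). Across all tested genes, Gomisin G 1 lay lower for longer genes, by a slope of -0.139 on log2 CPM for each doubling of length, and Gomisin G 2 had a slope of -0.0352. With the length trend of each library removed, the cytosolic median was -0.18 and the mitochondrial one -0.16. The difference between compartments was then -0.023. In this fit, 15 of 20 cytosolic and 11 of 16 mitochondrial genes were negative. In that fit FARSB was called (edgeR adjusted p = 0.0486) where 5.39% of all tested genes were.

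**Figure D3:**
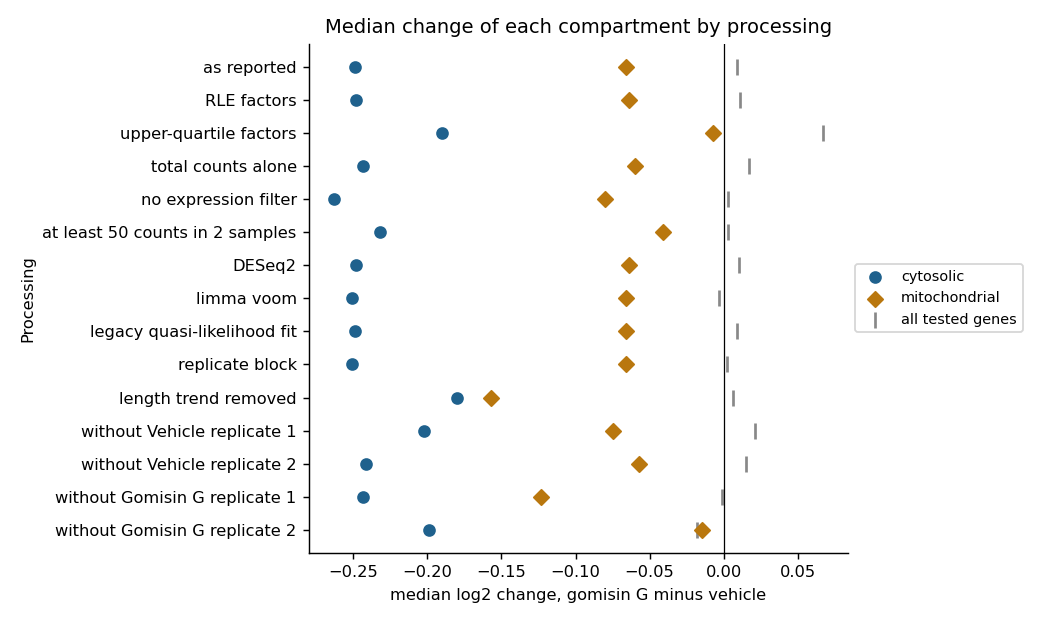
Median log2 change of the cytosolic genes (blue circles), the mitochondrial genes (orange diamonds) and all tested genes (grey bars) as reported and under each alternative processing. The cytosolic median stays between -0.26 and -0.18, and the compartments come within -0.023 of each other once the length trend is removed.

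Set side by side by amino acid, the 13 pairs with 1 cytosolic and 1 mitochondrial gene each were split: the cytosolic gene had the lower log2 change in 7 and the higher one in 6. Both genes were negative in 6 pairs, and in no pair were both positive. The widest gap was that of isoleucine, with IARS at -0.60 and IARS2 at 0.03, a difference of -0.63. Histidine (-0.39), valine (-0.36), threonine (-0.30), tyrosine (-0.26) and arginine (-0.22) followed in the same direction, and cysteine differed by -0.01. In the opposite direction, serine differed by 0.40, resting on the sparse SARS2, methionine by 0.20 and tryptophan by 0.15. Alanine (0.05), asparagine (0.07) and leucine (0.10) had both enzymes at nearly the same negative value. The bifunctional EPRS lay between its mitochondrial counterparts, 0.28 above EARS2 and 0.68 below PARS2 (a difference of -0.68). These differences are from the fit as reported, with no length trend removed, and were not tested. With the length trend removed, tyrosine changed order, with YARS at -0.15 and YARS2 at -0.22. The other pairs kept their order, with IARS at -0.49 and IARS2 at -0.002, HARS at 0.033 and HARS2 at 0.24, and MARS at -0.0074 and MARS2 at -0.42.

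**Figure D4:**
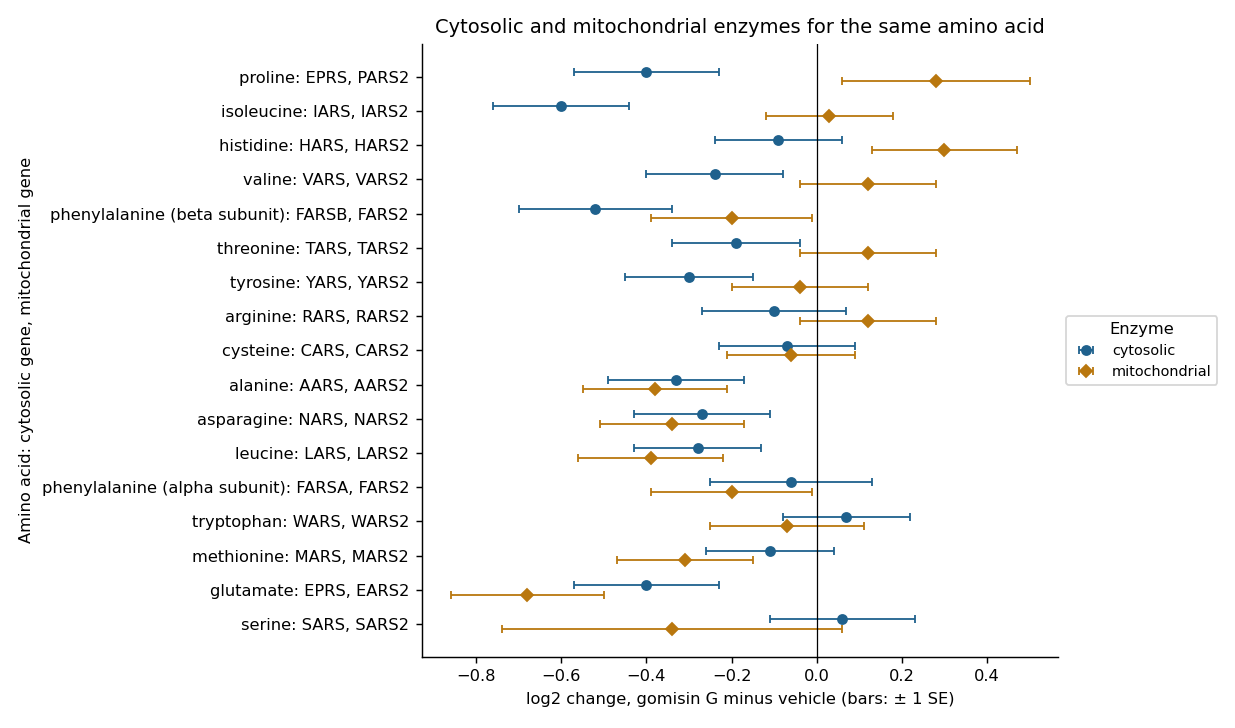
Log2 change with gomisin G of the cytosolic (blue circles) and mitochondrial (orange diamonds) gene for the same amino acid, with bars of 1 SE from edgeR's fit. Bars lie apart for isoleucine, where IARS is at -0.60 and IARS2 at 0.03, and for histidine, valine and proline. They about meet at their ends for threonine and overlap for every other amino acid shown. Values are those as reported, with no length trend removed.

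Synthetases fall into classes I and II by the fold of their catalytic domain. The 18 class I genes had a median log2 change of -0.085 with 13 negative, and the 17 class II genes a median of -0.26 with 13 negative. EPRS holds one of each and was left out of both counts. Groups lay apart below vehicle for 8 class I and 11 class II genes, against 27.3% of all tested genes, and above it for 3 and 1, against 27.0%.

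The 11 cytosolic genes commonly listed as ATF4 targets were compared with the other 9. Their medians were -0.27 and -0.24, with 9 and 8 negative (49.3% of all tested genes) and with 8 and 6 lower in both gomisin G libraries (27.3% of all tested genes). By sequence, the 6 cytosolic genes whose window held the C/EBP-ATF core had a median of -0.23 (range -0.60 to -0.07), and the 10 whose window did not hold it a median of -0.09 (range -0.52 to 0.07). Groups lay apart below vehicle for 5 of the 6 with the core and for 5 of the 10 without it, against 27.3% of all tested genes. DARS (-0.38), LARS (-0.28), VARS (-0.24) and YARS (-0.30) had no window and are in neither set, and all had both gomisin G libraries below both vehicle libraries. The ranges of the sets overlap.

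ATF4 itself gave 532.4 and 484.8 CPM with vehicle and 593.2 and 490.5 CPM with gomisin G, a log2 change of 0.09 (SE 0.18; edgeR adjusted p = 0.81) with overlapping groups. Of 24 genes comprising ATF4 and targets that are not synthetases, 14 were negative, the median was -0.056 and edgeR called 1, SLC7A5, against 1.83% of all tested genes. SLC7A5, the light chain of the LAT1 transporter that imports leucine, isoleucine and other large amino acids, gave 579.8 and 561.8 CPM with vehicle and 201.0 and 234.7 CPM with gomisin G. It fell by 1.39 on the log2 scale (SE 0.17; edgeR adjusted p = 0.014), far past the spread within groups. Its partner SLC3A2 had a change of 0.17 with overlapping groups.

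The other genes of that list split. Over its 24 genes, groups lay apart below vehicle for 7 and above it for 4, against 27.3% and 27.0% of all tested genes. PSAT1 (-0.67; edgeR adjusted p = 0.0903), of serine synthesis, and XPOT (-0.54; edgeR adjusted p = 0.127), the exporter of transfer RNA from the nucleus, had both gomisin G libraries below both vehicle libraries. ASNS, asparagine synthetase and a standard ATF4 target, gave 3.86 and 3.50 CPM with vehicle and 1.86 and 2.02 CPM with gomisin G, a log2 change of -0.92 (SE 0.31; edgeR adjusted p = 0.153). CEBPB (0.89; edgeR adjusted p = 0.0689) and ATF3 (0.56; edgeR adjusted p = 0.115), both transcription factors of stress responses, had both gomisin G libraries above. DDIT3, whose exons overlap those of MARS on the opposite strand, had a change of 0.60. None of these 6 was called by edgeR, and DESeq2 called PSAT1 and CEBPB as well as SLC7A5, 3 of the 24 where it called 6.5% of all genes.

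**Figure D5:**
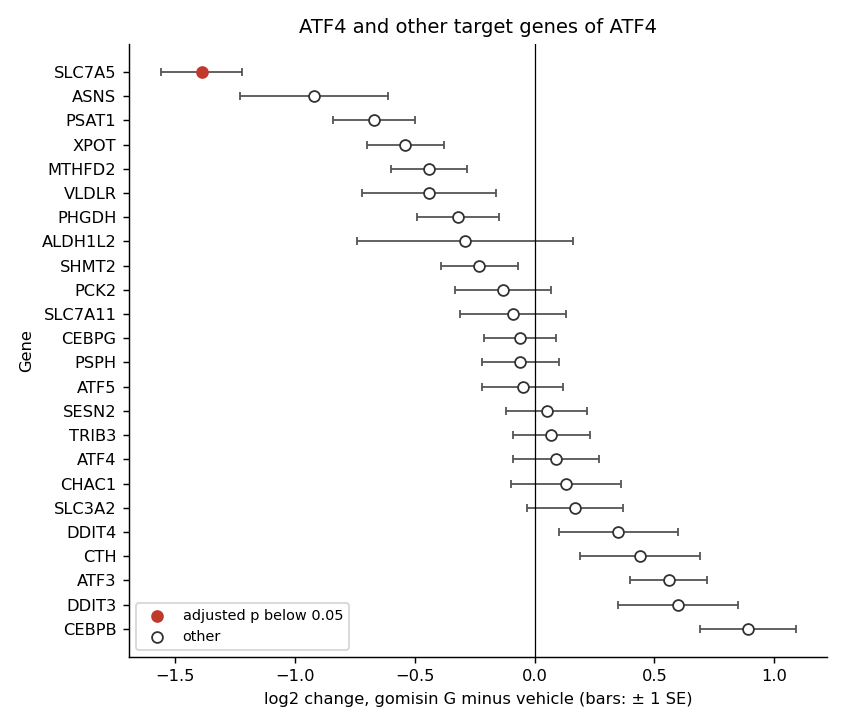
Log2 change with gomisin G of ATF4 and its targets other than synthetases, with bars of 1 SE from edgeR's fit; the filled red point is the gene called at an adjusted p below 0.05. SLC7A5 lies at -1.39, and CEBPB at 0.89 marks the other end.

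The list of kinases and phosphatase subunits that act on eIF2 upstream of ATF4 also held eIF2 alpha itself. Of these 7 genes, 6 were negative (median -0.22), against 49.3% of all tested genes. EdgeR called 0, against 1.83% of all tested genes, and 1 had an unadjusted p below 0.05, against 20.6%. DESeq2 and limma voom also called 0, against 6.5% and 1.68% of all genes. The gene below 0.05 was EIF2AK2 (-0.59; edgeR adjusted p = 0.11), the kinase activated by double-stranded RNA. EIF2AK4, the kinase that senses uncharged transfer RNA, had a change of -0.35 with overlapping groups. Next by p came PPP1R15A (0.26), a phosphatase subunit that is itself an ATF4-pathway gene, and EIF2AK1 (-0.22), the heme-regulated kinase.

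The 10 genes that serve mitochondrial aminoacylation beside the 16 enzymes had a median of -0.10 with 6 negative, against 49.3% of all tested genes. TRNT1, which adds the CCA end to transfer RNA, had a change of -0.35 and MTO1, which modifies mitochondrial transfer RNA, one of -0.27, both lower in both gomisin G libraries. Of the 10 genes, groups lay apart below vehicle for 3 and above it for 1, against 27.3% and 27.0% of all tested genes. By edgeR, 0 of the 10 were called and 0 had an unadjusted p below 0.05, against 1.83% and 20.6% of all tested genes. DESeq2 and limma voom called 0, against 6.5% and 1.68% of all genes.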

How the data were processed

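Each deposited table holds unnormalized counts of reads per gene, made by the authors with fastp, HISAT2 and featureCounts on hg38, per the submitters' processing notes, with no versions or settings given. Ribosomal RNA was removed before library construction, per the labels' protocols. The whole-series table and the 4 sample tables differed in 0 values, and all 58735 coordinates matched GENCODE 29.

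Computed here were: edgeR 4.0.16 in R 4.3.3 on all 4 libraries, with its default expression filter, TMM factors, the robust quasi-likelihood F test with treatment alone in the design, and Benjamini-Hochberg adjustment over 15721 tested genes. DESeq2 1.42.0, limma voom (limma 3.58.1), other scalings and filters, a replicate block, a fit with the length trend removed, and fits without each library were alternatives. The edgeR script was tested on simulated data. CPM uses TMM-scaled library sizes; SE is the log2 change divided by the square root of F. The highest member count was 5382 and the lowest, leaving SARS2 aside, 193. Counts alone did not set the precision: SE was 0.19 both for FARSA (1800 to 2175 counts) and for FARS2 (222 to 253 counts).

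The genes and lists were chosen with earlier results of these data known, so no list was tested and counts are set beside those of all genes. Every gene is named with its log2 change. CPM per library and the test are given for the 6 of lowest p in each compartment and for GARS, KARS and QARS. From each related list the called genes and up to 4 of lowest p are named, with ATF4, ASNS, AIMP1, AIMP2 and EEF1E1; 1 gene of these lists is not reported here. WARS, FARSA, SLC3A2, DDIT3, PARS2 and EEF1A1 were given more values after these were seen, and the E-box motif was likewise added after.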

Additional observations from a re-analysis of the deposited data

How the results depend on the processing

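RLE factors, total counts alone, no expression filter, limma voom and the legacy quasi-likelihood fit kept the direction and the uncalled state of all 36 genes, as did a minimum of 50 counts in 2 libraries for the 35 it tests, without SARS2. Upper-quartile factors moved the cytosolic median to -0.19 and turned FARSA (0.0013), CARS2 (0.0013) and YARS2 (0.024) positive. DESeq2 called 1 cytosolic and 1 mitochondrial gene. With the length trend removed, 1 cytosolic gene was called, the medians were -0.18 and -0.157 and their difference -0.023, and CARS (0.12), HARS (0.033), CARS2 (0.15), IARS2 (-0.002) and RARS2 (-0.035) turned sign. Summed CPM by total counts alone was 3834.3 and 3780.0 (vehicle) and 3204.9 and 3376.9 (gomisin G) for the cytosolic genes, and 853.0, 855.7, 772.7 and 842.0 for the mitochondrial ones.

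Replicate numbers are shared by label alone, with 2 pairs; differences between replicates 1 and 2 correlated at 0.215 over genes between the groups. A replicate block called 2 cytosolic genes (FARSB, IARS) and 1 mitochondrial gene (EARS2), where 18.4% of all genes were called. Leaving out each library in turn gave 0 to 7 cytosolic and 0 to 4 mitochondrial calls, a cytosolic median of -0.243 to -0.199, a mitochondrial one of -0.123 to -0.015 and a difference of -0.185 to -0.121. IARS, FARSB, GARS, DARS and EARS2 were called in both fits that lack a gomisin G library. Signs turned in these fits for CARS (-0.18 to 0.039), FARSA (-0.23 to 0.098), QARS (-0.026 to 0.13), RARS (-0.27 to 0.062), SARS (-0.12 to 0.22), CARS2 (-0.13 to 0.007), YARS2 (-0.096 to 0.021) and SARS2 (-0.69 to 0.14). The cause of these changes was not tested.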

Other observations

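Genes of translation factors and of transfer RNA handling had log2 changes of both signs. Of 11 mitochondrial translation factors, 6 had negative log2 changes, against 49.3% of all tested genes, with a median of -0.047. GFM1, an elongation factor, gave 86.6 and 81.9 CPM with vehicle and 59.1 and 64.3 CPM with gomisin G (log2 change -0.45; edgeR adjusted p = 0.163). LRPPRC, which stabilises mitochondrial messenger RNA, gave 403.7 and 402.3 CPM with vehicle and 283.2 and 310.6 CPM with gomisin G (log2 change -0.44; edgeR adjusted p = 0.182). MTIF2 (-0.30) and GFM2 (-0.28) came next by p. By edgeR 0 of the 11 were called, with 2 at an unadjusted p below 0.05, against 1.83% and 20.6% of all tested genes. DESeq2 and limma voom called 0, against 6.5% and 1.68% of all genes.

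Of 12 tested cytosolic elongation and initiation factors, 9 were negative, against 49.3% of all tested genes, with a median of -0.20. EdgeR, DESeq2 and limma voom called 0, against 1.83%, 6.5% and 1.68% of all genes. An edgeR unadjusted p below 0.05 was found for 2, against 20.6% of all tested genes. EEF1A2, a form of the factor that carries charged transfer RNA to the ribosome, gave 5.52 and 5.05 CPM with vehicle and 14.4 and 7.51 CPM with gomisin G (log2 change 1.05, edgeR adjusted p = 0.138). EEF1A1, the far more abundant form, gave 8942.8 and 8879.6 CPM with vehicle and 12007.5 and 9623.2 CPM with gomisin G. Its log2 change was 0.28 (edgeR adjusted p = 0.551). EIF5B (-0.38), EIF4G1 (-0.44) and EIF2S3 (-0.32) lay lower in both gomisin G libraries. Of the 12 genes, groups lay apart below vehicle for 6 and above it for 2, against 27.3% and 27.0% of all tested genes. EEF1G is listed at 0 counts in all 4 libraries and was not tested. How reads falling on several genes were counted is not given, so whether its transcript was absent cannot be told. Of 9 genes for transfer RNA quality control and related ligation, which include TRNT1 and XPOT, 4 were negative and the median was 0.083. PSTK, a kinase on the selenocysteine route, had a log2 change of 0.29, and PTRH2, a peptidyl-tRNA hydrolase, one of 0.18.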
